A study of Mus musculus with 16 samples.

Results

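Donor CD8+ T cells were set against donor CD4+ T cells from the spleen of mice that had received an allogeneic haematopoietic stem cell transplant. The comparison takes 5 of the series' 16 one-colour expression arrays, the 3 titled as allogeneic splenic CD8 and the 2 titled as allogeneic splenic CD4. Values are log2 processed signals minus each array's 75th percentile, so a value of 0 is the level of that percentile on the array. Probes were kept where their spot was well above background on every array of either group.

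The labels give the same description to all 5 samples apart from the sorted cell: female mice, C57BL/6 strain background, spleen, murine allogeneic hematopoietic stem cell transplantation. No label gives the donor and recipient strains, a conditioning treatment, the time after transplantation or the age of the mice, and nothing in them tells whether a replicate is another animal. The p-values below therefore rest on how the samples scatter inside their groups, a scatter that may be technical. A limited number of cells of each population was double-sorted into Trizol, and their RNA was amplified before labelling. The other groups were CD8 and CD4 cells of the ovary after allogeneic transplantation (4 and 2 arrays). CD8 and CD4 cells of the spleen after syngeneic transplantation (3 and 2 arrays) were used too. They serve to show where the allogeneic spleen differs. Their scatter also enters the p-values, since the main fit estimated the spread over all 16 arrays.

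In a transplant between mice that differ at histocompatibility genes, donor T cells meet foreign antigens of the recipient, divide and become effector cells, a reaction known as graft-versus-host disease when it injures tissues. CD8+ cells recognise peptides on MHC class I molecules and kill target cells with perforin, granzymes and Fas ligand. CD4+ cells recognise peptides on MHC class II molecules and act mainly through cytokines and costimulatory ligands, and a fraction of them are regulatory cells that carry the factor Foxp3. The choice between the lineages is made in the thymus, where the factor ThPOK (Zbtb7b) holds cells in the CD4 lineage and Runx3 silences Cd4 and supports Cd8a.

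The upstream sequences of Cd8a and Zbtb7b are shown because these genes carry the coreceptor and the lineage factor on which the sort and the comparison rest. Each is the 250 bases before a RefSeq gene start (GRCm38.p6), 5′ to 3′ on the gene's strand, with capitals marking a match to a searched motif.

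Cd8a, chr6:71373177-71373426, plus strand: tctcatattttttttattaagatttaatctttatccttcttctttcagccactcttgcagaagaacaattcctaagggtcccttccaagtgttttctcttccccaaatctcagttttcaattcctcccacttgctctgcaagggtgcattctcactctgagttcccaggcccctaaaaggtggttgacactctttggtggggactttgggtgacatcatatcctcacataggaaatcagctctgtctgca
Zbtb7b, chr3:89393379-89393628, minus strand: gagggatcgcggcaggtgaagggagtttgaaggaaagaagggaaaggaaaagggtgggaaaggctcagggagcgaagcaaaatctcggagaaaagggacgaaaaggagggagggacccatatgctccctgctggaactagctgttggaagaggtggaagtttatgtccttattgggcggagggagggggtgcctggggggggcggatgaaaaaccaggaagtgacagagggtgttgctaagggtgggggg
Zbtb7b, chr3:89387672-89387921, minus strand: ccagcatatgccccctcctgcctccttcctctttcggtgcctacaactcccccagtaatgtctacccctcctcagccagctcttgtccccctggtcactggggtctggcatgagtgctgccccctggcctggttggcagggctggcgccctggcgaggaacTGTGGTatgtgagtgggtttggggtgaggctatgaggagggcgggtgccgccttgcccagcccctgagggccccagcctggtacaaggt

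For the RUNX family the letters TGTGGT were searched on both strands. For the GATA family they were AGATAA, and for the TCF family CTTTGA, likewise on both strands. In the 3 windows there was 1 match, to the RUNX letters, and it begins 89 bases before the second Zbtb7b start, so no matches overlapped. Of 32851 windows of the same length in the reference, 14% hold the RUNX letters, 9.99% the GATA letters and 13.8% the TCF letters, so a match is a description of the sequence and nothing more.

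The 75th percentile of the signal was 449.7, 342.2 and 189.3 units on the CD8 arrays and 140.7 and 67.6 on the CD4 arrays, so the CD4 arrays were the dimmer ones and CD4 replicate 2 was the dimmest of all 16. Arrays of the CD8 group correlated at 0.96 to 0.98 with each other, the CD4 pair at 0.93, and CD8 with CD4 arrays at 0.89 to 0.94. CD4 replicate 1 stood apart in another way: of 6904 bright features, 244 (3.53%) lay more than 3 log2 units under their median over the arrays there, against 0 to 81 on any other array. Of these 244 features 168 were called in the comparison, and 92 were still called when that array was left out. Slide 1 held CD8 replicates 1 and 2 and CD4 replicate 1, and slide 2 held CD8 replicate 3 and CD4 replicate 2. These facts bear on single genes, which are given below with the value without the array concerned.

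The sort markers were measured first. Values by array are given for CD8 replicates 1, 2 and 3 and then for CD4 replicates 1 and 2. Cd8a, the CD8 alpha chain, read 5.59, 5.48 and 5.46 in CD8 cells and -5.65 and -4.35 in CD4 cells, where it was not well above background. The difference was at least 426-fold (limma, adjusted p = 1.04e-07). For a gene in that position the text gives such a bound, set by the lowest signal well above background on the dim arrays. Where a fitted difference is printed for such a gene, its value with every array raised to that floor stands beside it. Cd8b1, the beta chain, read 6.01, 5.82 and 5.36 against -1.65 and -1.93, a log2 difference of 7.52 ± 0.27 (standard error of the fit). It was still well above background on both CD4 arrays. Cd4 read 1.42, 1.77 and 2.05 in CD8 cells, still well above background on all 3 arrays, and 4.66 and 4.97 in CD4 cells, a difference of -3.07 ± 0.20 (adjusted p = 2.86e-06). Each marker thus separated the groups in the direction of the label, and the Cd4 signal was 8.39 times lower in the CD8 arrays without being lost.

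The CD3 chains, shared by all T cells, differed less than the sort markers. Cd3d, Cd3e and Cd3g, chains of the CD3 complex, differed by 0.24 ± 0.16, 0.21 ± 0.20 and -0.10 ± 0.21, and 0 of the 3 were called (adjusted p from 0.273 to 0.727). The sign of the Cd3e and Cd3g differences turned under other settings. Of 28 measured genes of the receptor complex and its proximal signalling, 5 were higher in CD8 and 4 in CD4 cells. This is near the 15.5% and 14.4% of all features, and the median difference was 0.22 against -0.03 over all features. Trat1, a transmembrane adaptor of the receptor complex, read -0.63, -0.49 and -1.29 in CD8 cells and 1.56 and 1.15 in CD4 cells (difference -2.16 ± 0.29). Cd5 and Cd6, receptors that dampen signalling, were higher in CD4 cells by 1.05 ± 0.23 and 1.26 ± 0.27 as magnitudes on the log2 scale, and Cd6 was furthest apart on CD4 replicate 1 (8.45 against 7.19 on replicate 2). A further Cd6 probe was not called (-0.43, adjusted p = 0.146). Txk, a Tec-family kinase, was higher in CD8 cells by 1.11 ± 0.24.

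Across 23849 features, 7128 (29.9%) passed limma's test, which here means an adjusted p (Benjamini-Hochberg, over all features) below 0.05 and is written as called. Of these, 3700 (15.5% of those tested) were higher in CD8 cells and 3428 (14.4%) in CD4 cells. A difference of at least 1 log2 unit was reached by 3848 called features, of at least 2 by 1207 and of at least 3 by 552. The groups of arrays did not overlap for 11745 features (49.2%), with CD8 arrays higher for 23.8% and CD4 arrays higher for 25.4% of those tested. A fit to the 5 arrays alone, which have few residual degrees of freedom, called 1216 features, 585 higher in CD8 cells (2.45%) and 631 in CD4 cells (2.65%). In that fit 19 of 37 cell cycle genes, 7 of 17 cytotoxic genes and 15 of 18 macrophage markers, described below, were still called. Other lists described below kept few calls or none there. Of 33 respiratory chain and 22 cholesterol synthesis genes 0 were called, and of 20 effector and memory factors 1. Of 18 STAT and SOCS genes 0 were higher in CD8 and 1 in CD4 cells, and of 17 lineage genes 2 and 1. With CD4 replicate 1 left out of the full fit the calls were 4464 (18.7%) and 2938 (12.3%), and with CD4 replicate 2 left out 2646 (11.1%) and 2814 (11.8%). In these fits the lone CD4 array was assumed to vary like the other groups. Of the 7128 called features, 7092 (99.5%) had the same sign on both slides, against 70.1% of all features. The calls were made from these same 5 arrays, so agreement between the slides is partly built in and does not replicate them.

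**Figure D1:**
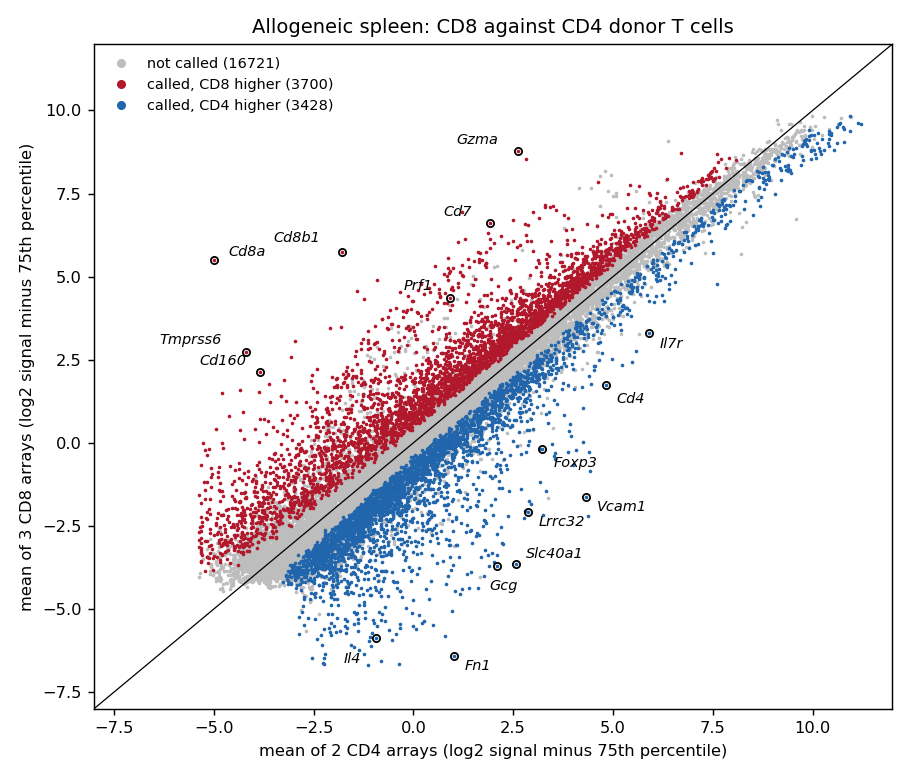
Mean of the 2 CD4 arrays (x axis) against the mean of the 3 CD8 arrays (y axis) for all 23849 features, as log2 signal minus the array's 75th percentile. Red features (3700) were called higher in CD8 cells and blue ones (3428) in CD4 cells, and the line marks equal means. Cd8a and Cd8b1 lie farthest above the line, and Fn1, Slc40a1, Vcam1 and Gcg far below it.

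Beside the CD8 chains, the largest differences toward CD8 cells included 13 further named genes. Tmprss6, a membrane serine protease, read 2.34, 2.37 and 3.53 in CD8 cells and -4.78 and -3.61 in CD4 cells, at least 62.8-fold higher. Gzma, granzyme A, read 8.41, 8.53 and 9.36 against 4.21 and 1.03, so that the CD4 arrays differed widely from each other and still lay below every CD8 array. Septin4, a cytoskeletal septin, differed by 6.03 ± 0.42, and Adamts14, a secreted metalloprotease, by 5.98 ± 0.27. The adhesion receptors Adgrg1 and Adgrg5 differed by 5.55 ± 0.59 and 5.39 ± 0.37, and Epdr1, a secreted ependymin-related protein, by 5.66 ± 0.48. Of these, Septin4, Adgrg5 and Epdr1 were well above background on 1 of the 2 CD4 arrays, and with the floor Adgrg5 and Epdr1 differed by 4.89 and 4.93. Cd160, an immunoglobulin-like receptor of killer cells, read 2.53, 2.23 and 1.65 against -4.79 and -2.87, at least 41.1-fold higher, and Cd200r2, a member of the CD200 receptor family, was at least 28.1-fold higher. Nudt11 and Nudt10, hydrolases of inositol pyrophosphates, were at least 26.5-fold and 16.2-fold higher, and since they are close copies of each other their probes may share target RNA.

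Irf8 and Abcb9 were among these 15 largest rises, and for them 1 array sets the size. Irf8, an interferon regulatory factor, read 4.17, 4.20 and 4.58 in CD8 cells but -4.82 on CD4 replicate 1, below that array's floor, and 2.36 on CD4 replicate 2. Its difference of 5.54 ± 1.40 became 1.95 without CD4 replicate 1 (adjusted p = 0.034). Abcb9, a lysosomal peptide transporter, read 6.77, 6.83 and 7.25 against -1.61 and 4.05, and its difference of 5.73 ± 1.07 became 2.90. Id2, a helix-loop-helix factor named here after its values were seen, shows the same pattern to the point that the call ends: it read 0.04 on CD4 replicate 1 and 5.67 on replicate 2 beside 5.86 to 6.49 in CD8 cells, and without the first its difference was 0.41.

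Toward CD4 cells, the 15 largest differences began with genes that macrophages and stroma are known to express. Slc40a1, the iron exporter ferroportin of macrophages, read -4.77, -2.25 and -3.89 in CD8 cells and 2.19 and 2.93 in CD4 cells (difference -6.19 ± 0.99). Vcam1, the adhesion molecule of splenic macrophages and stroma, read -0.49, -0.87 and -3.51 against 4.07 and 4.57. Mrc1, the mannose receptor, C1qc, a complement chain, and Sirpa and Sirpb1b, signal-regulatory proteins of myeloid cells, differed by -5.71, -5.41, -5.77 and -5.32, and Pla2g7, which degrades platelet-activating factor, by -5.60. Slc40a1 was well above background on 1 of the 3 CD8 arrays and the last 5 on 2 of 3. With the floor these 5 differed by -5.03, -5.17, -5.00, -4.60 and -5.05. On every CD8 array Adamdec1, a protease of mature macrophages, Hcar2, a niacin receptor, and Fn1, fibronectin, were not well above background. They were at least 34.8-fold, 26.0-fold and 50.7-fold higher in CD4 cells, although the CD4 arrays disagreed on Fn1, at -0.76 and 2.81.

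The other 5 were Gcg, Ccn4, Ptgs1, Akr1b7 and Sln. Gcg, the proglucagon gene of gut and pancreas, read -3.87, -3.44 and -3.82 in CD8 cells and 1.92 and 2.26 in CD4 cells, a difference of -5.80 ± 0.38 (adjusted p = 2.66e-06). Ccn4, a matricellular protein, differed by -5.77 ± 0.69 and Ptgs1, cyclooxygenase 1, by -5.47 ± 0.79, each well above background on 2 of the 3 CD8 arrays. Akr1b7, an aldo-keto reductase, was at least 27.2-fold and Sln, a regulator of the muscle calcium pump, at least 17.1-fold higher in CD4 cells.

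The macrophage and monocyte list as a whole was higher in the CD4 arrays. All 18 measured markers of 19 were called higher in CD4 cells, with a median difference of -4.39. All 18 were well above background on both CD4 arrays, while 7 were so on every CD8 array. The rest passed the filter only through the CD4 arrays, so for them the direction is partly built in by the filter. The summed signal of all 18, in multiples of the 75th percentile, was 13.5, 14.3 and 9.42 on the CD8 arrays. On the CD4 arrays it was 160.3 and 166.3. C1qb and Apoe, a complement chain and a lipid carrier abundant in macrophages, differed by -3.50 ± 0.32 and -4.15 ± 0.40. Fcer1g and Tyrobp, signalling adaptors shared by NK and myeloid cells and named here after their values were seen, differed by -3.75 ± 0.56 and -3.35 ± 0.68, with both genes at 3.80 to 4.03 on the CD4 arrays. In these bulk samples, fewer cells of a type and less RNA per cell cannot be told apart, and what part these markers have in any other difference was not tested.

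Other marker lists moved less. Of 11 measured B-cell markers 5 were higher in CD4 cells, among them Cd79b (difference -1.05 ± 0.32), Fcmr (-1.81 ± 0.59) and Bank1 (-1.73 ± 0.48), and these calls rested on single arrays: 0 of 11 were called without CD8 replicate 1, 1 without CD8 replicate 3 or CD4 replicate 2, 2 without CD4 replicate 1 and 3 without CD8 replicate 2. A further probe of Bank1 did not differ in the same way (0.0060, adjusted p = 0.998). Their summed signal was 5.12 to 7.97 on the CD8 arrays and 13.7 to 14.3 on the CD4 arrays. Mzb1, a chaperone of plasma cells, was the 1 called of 6 plasma-cell markers (-3.26 ± 0.88), and not without CD4 replicate 2, CD8 replicate 1 or CD8 replicate 2 (-3.92 to -2.60). Of 11 dendritic-cell markers 4 were higher in CD8 cells, or 2 with the floor. They were Clec9a, Flt3 and Xcr1, which mark cross-presenting dendritic cells and their precursors, and the integrin Itgax, which activated T cells also carry. Flt3 and Xcr1 were not well above background on either CD4 array. With the floor neither was called (1.67 and 0.83, adjusted p = 0.140 and 0.453). Clec9a read -0.21, -0.57 and 1.60 and was at least 11.3-fold higher, and 2 of the 11 were called without CD4 replicate 1 or CD8 replicate 3 and 1 after normexp background correction. The summed dendritic signal reached 35.0 on the CD8 arrays and 23.4 on the CD4 arrays, and the groups did not overlap.

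Of 14 listed gamma-delta T and NK cell markers 6 were measured. Of these 4 were called higher in CD8 cells and 1 in CD4 cells (-0.90), where 15.5% and 14.4% of all features were called. The 4 included the NK receptors Klra8 (2.90 ± 0.27), Klra9 (2.45 ± 0.57) and Klra4 (at least 2.95-fold higher), close copies whose probes may share targets. The other was Zbtb16, the factor PLZF of innate-like T cells (2.77 ± 0.45). The Klra4 call ended without CD4 replicate 1, CD8 replicate 1 or CD8 replicate 2 (fitted differences 1.36 to 3.71 with 1 array left out). With the floor it was not called either (1.56, adjusted p = 0.0715). Klra9 and Zbtb16 were well above background on 1 of the 2 CD4 arrays, and with the floor differed by 2.41 and 1.82. Of 10 MHC class II genes 1 was called, and 0 without CD4 replicate 2, CD8 replicate 1 or CD8 replicate 2. Ltf, lactoferrin of neutrophils, read 0.80 to 1.11 in CD8 cells and was at least 17.6-fold higher there, while Prg2, an eosinophil granule protein, differed by -3.81 ± 1.16, or -2.66 with the floor, from 1 CD8 array well above background, a call that ended without CD4 replicate 2, CD8 replicate 1 or CD8 replicate 2 (-4.85 to -3.15). Car2, a carbonic anhydrase of red cells, differed by 2.97 ± 0.56, with 1 of the 2 CD4 arrays well above background. Car2 was the only 1 of 7 measured erythroid and platelet markers above 0, as was Ltf among 6 neutrophil, basophil and mast-cell markers. The medians of these lists were -0.35 and -0.64. In each list 1 marker was called in each direction, near the 15.5% and 14.4% of all features.

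**Figure D2:**
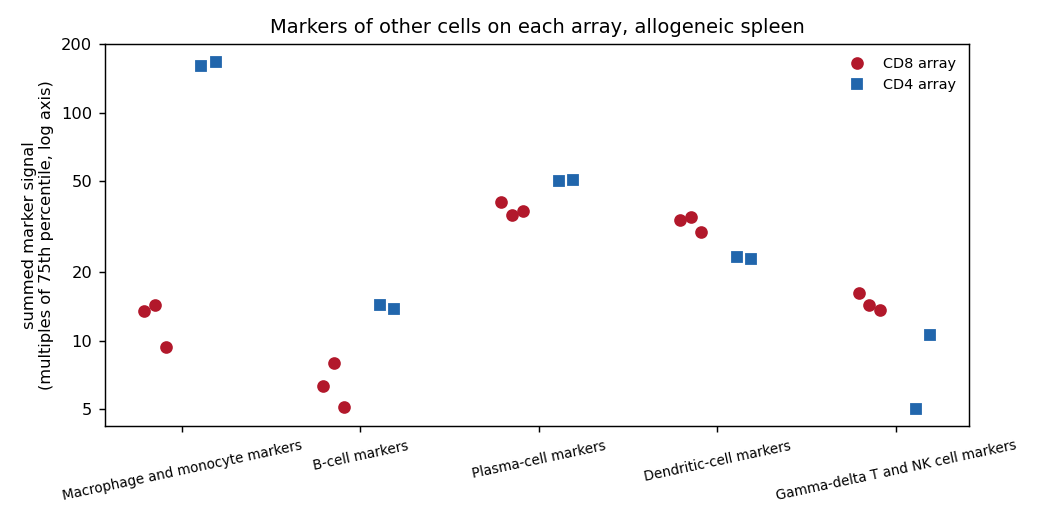
Summed signal of the markers of 5 other cell types on each of the 5 arrays, in multiples of the array's 75th percentile on a log axis. The CD4 arrays (squares) hold 160.3 and 166.3 for macrophage markers where the CD8 arrays (circles) hold 9.42 to 14.3, and the CD8 arrays are higher for dendritic, gamma-delta T and NK markers.

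Among coreceptors and lineage factors, 7 of 17 measured genes were higher in CD8 and 6 in CD4 cells, where 15.5% and 14.4% of all features were called. In the 5 arrays alone the counts were 2 and 1. Zbtb7b, which fixes the CD4 lineage and whose upstream windows are printed above, read 3.80, 4.22 and 4.73 in CD8 cells and 6.26 and 5.57 in CD4 cells. The arrays did not overlap, and the difference was -1.66 ± 0.41 (adjusted p = 0.0103), or -1.32 (adjusted p = 0.071) without CD4 replicate 1. Runx3 read 2.52, 2.46 and 2.97 against 1.91 and 1.69 (0.85 ± 0.17), a call lost after normexp correction (0.48, adjusted p = 0.0523). Gata3, which promotes the CD4 lineage and T helper type 2 cells, differed by -0.86 ± 0.18. Tox, a nuclear factor needed for CD4 lineage development that also rises in chronically stimulated CD8 cells, was higher in CD8 cells at 5.27, 5.11 and 5.66 against 3.99 and 4.39. Without CD4 replicate 1 the counts of the list were 5 and 2, and without CD8 replicate 1 they were 4 and 4.

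Of the cytotoxic granule genes, 11 of 17 measured were higher in CD8 cells and 2 in CD4 cells (9 to 11 and 1 to 3 with 1 array left out), with a median difference of 1.42. Prf1, the pore-forming perforin, read 4.48, 4.44 and 4.19 in CD8 cells and 0.89 and 0.95 in CD4 cells, a difference of 3.45 ± 0.17 (adjusted p = 3.01e-07). Gzmb, granzyme B, read 5.96 and 5.84 on CD8 replicates 2 and 3, the spot of replicate 1 being left out as an outlier, and 2.56 and 2.62 in CD4 cells. Perforin and granzyme B were thus about equally separated, with little spread inside either group, and 10.9-fold and 9.91-fold higher in CD8 cells.

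Gzmk, a tryptase-like granzyme, read 2.43, 2.18 and 1.03 against -0.08 and -0.72, a difference of 2.28 ± 0.35. Fasl, the ligand of the death receptor Fas, read 4.56, 4.41 and 4.52 against 2.63 and 1.28 (2.54 ± 0.37). Nkg7, a granule membrane protein needed for degranulation, stood at 8.47, 8.77 and 8.93 against 6.88 and 6.52 (2.02 ± 0.17), and Ctsw, a cathepsin of killer cells, differed by 2.08 ± 0.24. The CD4 arrays were not without these transcripts: each of the genes in this paragraph was well above background on both. Cd8b1 was so too, and which cells of the CD4 samples these signals came from was not tested.

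NK-type receptors followed, with 9 of 16 measured genes higher in CD8 and 2 in CD4 cells and a median of 1.67. The 2 higher in CD4 cells were Fcer1g and Tyrobp, described above with the macrophage markers. Cd7, an immunoglobulin-like T and NK cell receptor, read 6.19, 6.41 and 7.25 against 2.24 and 1.61, 25.8-fold higher in CD8 cells. Klrk1, the activating receptor NKG2D, read -0.63, -1.11 and -1.76 against -5.84 and -4.66, where it was not well above background, and was at least 4.16-fold higher. Klrd1 (CD94) and Klrc1 (NKG2A), partners in an inhibitory receptor for nonclassical MHC class I, differed by 2.08 ± 0.24 and 2.95 ± 0.51, and Crtam, an adhesion receptor of activated killer cells, by 2.46 ± 0.22.

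Of 17 inhibitory receptors and their enzymes 5 were higher in CD8 and 2 in CD4 cells, Cd160 being the largest. Over all features 15.5% and 14.4% were called in these directions. Pdcd1 (PD-1) read 6.63, 6.73 and 6.55 against 5.27 and 4.99 (1.51 ± 0.32, adjusted p = 0.00471). Havcr2 (TIM-3) read 4.44, 4.18 and 4.85 against 1.31 and 1.43, 8.71-fold higher in CD8 cells, and Cd96, a receptor for nectin-like ligands, differed by 1.43 ± 0.22. Lag3 differed by 1.87 ± 0.60, with CD8 replicate 1 at 1.87 and the other CD8 arrays at 3.58 and 3.67, and its call ended when CD4 replicate 1, CD4 replicate 2, CD8 replicate 2 or CD8 replicate 3 was left out (1.55 to 2.45). Tigit (0.57 ± 0.20, adjusted p = 0.0516) and Ctla4 (-1.19 ± 0.46, adjusted p = 0.0694) were not called, although each was after normexp correction with quantile normalization. Nt5e (CD73), which makes adenosine, was 3.43-fold higher in CD4 cells.

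The transcription factors of effector and memory cells included Eomes, which drives cytotoxic and memory programmes in CD8 cells and read 5.43, 5.35 and 5.71 against 3.05 and 3.18 (2.38 ± 0.23, adjusted p = 3.69e-05). Tbx21 (T-bet), its relative, read 5.46, 5.50 and 4.93 against 4.55 and 3.90, a smaller difference of 1.07 ± 0.37 (adjusted p = 0.0458) that was not called under quantile normalization (0.83, adjusted p = 0.119) nor without CD4 replicate 2, CD8 replicate 1 or CD8 replicate 2 (0.75 to 1.40). Nr4a2, an early-response nuclear receptor, differed by 2.25 ± 0.70, and that call ended without CD4 replicate 1 or any 1 CD8 array (1.61 to 2.89), nor was its further probe called (1.87, adjusted p = 0.0884). In all, 6 of 20 measured factors were higher in CD8 and 1 in CD4 cells, where 15.5% and 14.4% of all features were called. Under quantile normalization the counts were 3 and 2, and in the 5 arrays alone 1 and 0. Without CD8 replicate 1 or CD8 replicate 2 the counts were 3 and 1. Stat5a, which carries interleukin-2 and interleukin-7 signals, was the 1 higher in CD4 cells (-0.82 ± 0.16).

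**Figure D3:**
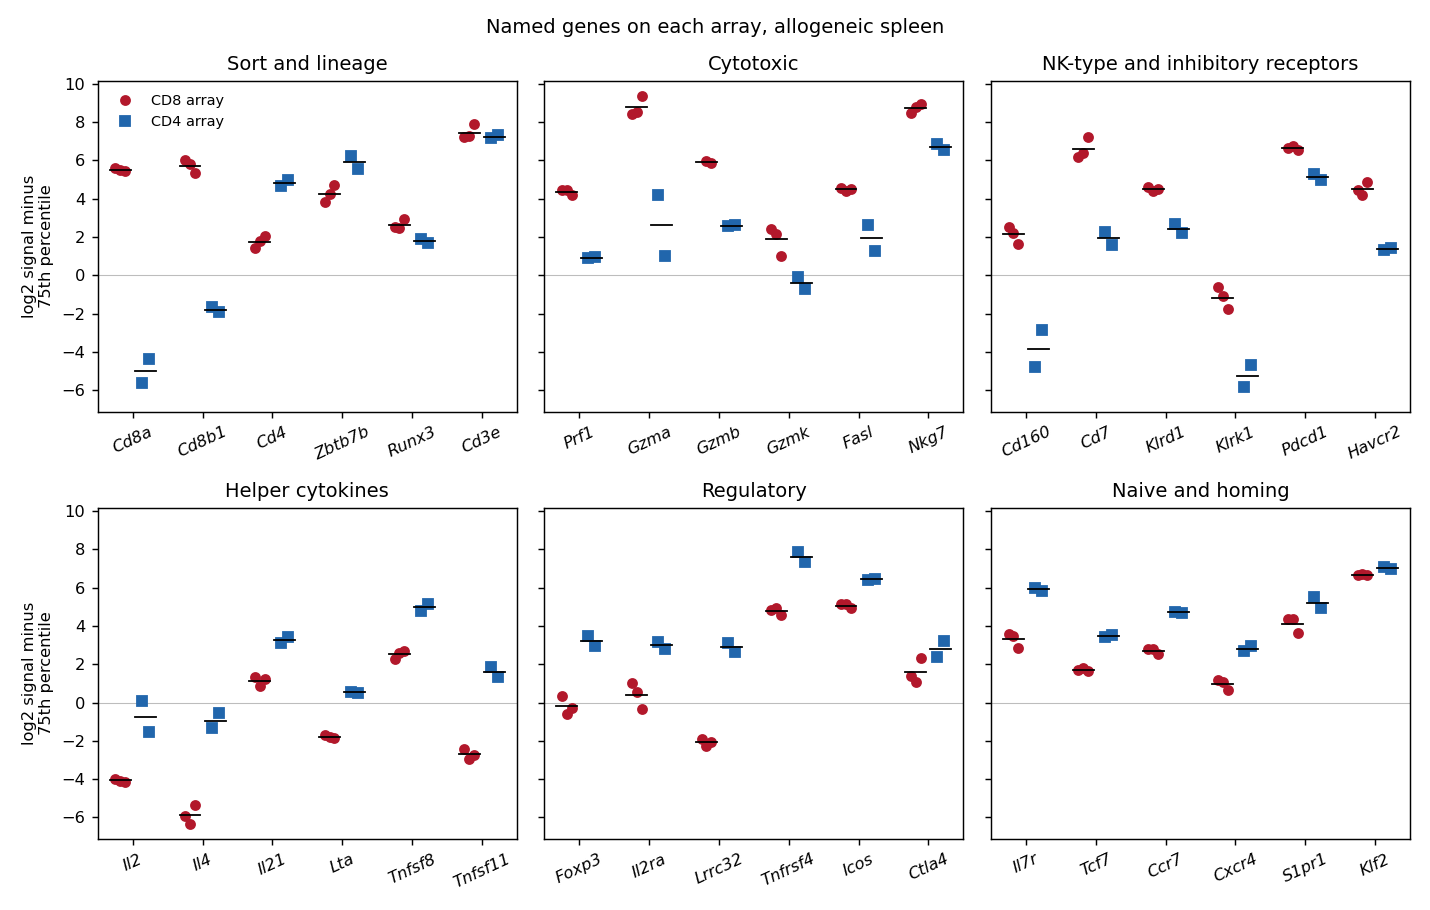
Values of 36 genes on each array as log2 signal minus the 75th percentile, in 6 groups by role, with a short line at each mean. CD8 arrays (circles) lie above CD4 arrays (squares) for the cytotoxic and receptor genes and below them for helper, regulatory and naive genes, and heights of different genes are not comparable because they come from different probes.

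Of 8 chemokines made by T cells, 3 were higher in CD8 cells and 1 in CD4 cells, where 15.5% and 14.4% of all features were called. Ccl3 and Ccl4, inflammatory chemokines of effector T cells, read 6.54, 6.55 and 7.52 and 7.39, 7.56 and 8.30 in CD8 cells, against 4.12 and 5.35 and 4.89 and 5.97 in CD4 cells. Their differences were 2.13 ± 0.45 and 2.32 ± 0.59, and Ccl4 was not called without CD4 replicate 1 (1.78, adjusted p = 0.085). Xcl1, which attracts cross-presenting dendritic cells, differed by 1.90 ± 0.56, a call that ended without CD4 replicate 2, CD8 replicate 1 or CD8 replicate 2 (0.96 to 2.84). Ccl5 was high in every sample, 9.48 to 10.12 in CD8 and 9.07 and 9.16 in CD4 cells, and was not called (0.60 ± 0.23, adjusted p = 0.0702), although it was under quantile normalization (1.11). Ccl1 was higher in CD4 cells, chiefly on replicate 1 (3.80 against 0.56 on replicate 2), and its difference of -2.85 was not called without CD4 replicate 1 or any 1 CD8 array (-4.47 to -1.23).

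Among 12 inflammatory and helper chemokine receptors, 3 were higher in each cell type, where 15.5% and 14.4% of all features were called. Cx3cr1, the fractalkine receptor of effector CD8 cells, read 6.07, 6.07 and 5.18 against 3.68 and 2.32 (2.77 ± 0.43). Cxcr6, a receptor of tissue-homing effector cells, read 7.39, 7.45 and 7.72 against 6.40 and 5.82 (1.40 ± 0.22). On the other side stood Ccr4, a receptor of type 2 and regulatory cells, at -4.21, -6.78 and -5.68 against 0.28 and -0.94, with 1 of the 3 CD8 arrays well above background, and Ccr3, the eotaxin receptor, which differed by -2.89 ± 0.29. Cxcr3, a receptor of type 1 responses, was not called (-0.57 ± 0.31).

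Cytokines lay on the side of the CD4 cells, with 5 of 12 measured genes higher there, 0 higher in CD8 cells, and a median of -1.13. Il2, the growth factor of T cells, read -3.97, -4.09 and -4.14 in CD8 cells and 0.07 and -1.55 in CD4 cells, a difference of -3.33 ± 0.47 (adjusted p = 0.000486), with 2 of the 3 CD8 arrays well above background. Il4, which drives type 2 responses, was not well above background on any CD8 array and at least 13.0-fold higher in CD4 cells. Il21, a cytokine of follicular helper cells, read 1.36, 0.85 and 1.21 against 3.09 and 3.42 (-2.12 ± 0.45). Lta, lymphotoxin alpha, separated the groups with little spread, at -1.68, -1.80 and -1.85 against 0.56 and 0.51 (-2.31 ± 0.14). Ifng, interferon gamma, read 6.55, 6.58 and 7.64 in CD8 cells and 5.36 and 6.13 in CD4 cells, and its difference of 1.18 ± 0.60 was not called (adjusted p = 0.157).

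Helper and follicular helper genes gave 9 of 23 measured higher in CD4 cells and 1 in CD8 cells (8 to 10 and 0 to 2 with 1 array left out). Maf, a factor of type 2 and follicular helper cells, read 0.86, 0.75 and 1.54 against 4.03 and 4.48, 9.23-fold higher in CD4 cells (adjusted p = 4.85e-05). Of 21 costimulatory receptors and ligands of the TNF superfamily 12 were higher in CD4 cells and 3 in CD8 cells. Tnfsf11 (RANK ligand) read -2.45, -2.93 and -2.73 against 1.88 and 1.33, and Tnfsf8 (CD30 ligand) 2.26, 2.61 and 2.72 against 4.81 and 5.15. Tnfrsf4 (OX40) was 7.08-fold and Icos 2.61-fold higher in CD4 cells. The ligand of OX40, Tnfsf4, went the opposite way: it read 0.58, 0.05 and 0.62 in CD8 cells and -3.38 and -4.56 in CD4 cells, where 1 of the 2 arrays was well above background. The fitted difference was 4.38 ± 0.58 (adjusted p = 0.000301), or 3.35 with the floor (adjusted p = 8.24e-05).

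Regulatory T-cell genes were higher in CD4 cells for 9 of 17 measured and higher in CD8 cells for 0, with a median of -1.19. Foxp3, the defining factor, read 0.35, -0.59 and -0.29 in CD8 cells and 3.50 and 2.97 in CD4 cells, a difference of -3.41 ± 0.40. Lrrc32, which holds latent TGF-beta on the surface of regulatory cells, read -1.89, -2.29 and -2.04 against 3.13 and 2.62, 31.0-fold higher in CD4 cells. Il2ra (CD25), the high-affinity interleukin-2 receptor chain, read 1.02, 0.57 and -0.34 against 3.18 and 2.80 (-2.57 ± 0.39), and Capg, an actin-capping protein, differed by -1.66 ± 0.19.

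Of 20 naive and memory genes 8 were higher in CD4 and 3 in CD8 cells, where 14.4% and 15.5% of all features were called. Il7r, the interleukin-7 receptor that sustains resting cells, read 3.56, 3.47 and 2.87 in CD8 cells and 5.99 and 5.82 in CD4 cells (-2.61 ± 0.26, adjusted p = 5.01e-05). Tcf7, the factor TCF1 of naive and stem-like cells, read 1.68, 1.78 and 1.67 against 3.40 and 3.51, and Ccr7, the lymph-node homing receptor, 2.81, 2.81 and 2.52 against 4.74 and 4.70. These 3 genes were 6.09-fold, 3.35-fold and 4.02-fold higher in CD4 cells, with no overlap between arrays. Klf2, a factor of quiescent cells, was not called (-0.33 ± 0.23), although it was after normexp correction (-0.64). Actn1, an actin crosslinker, was 2.05-fold higher in CD8 cells. Only 3 of the 20 genes were called higher in CD4 cells when CD4 replicate 1 was left out, and 5 without CD4 replicate 2, and Il7r, Tcf7 and Ccr7 were among the calls there (-2.52, -1.80 and -1.99).

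Integrin, adhesion and homing genes split evenly, 7 of 24 higher in each cell type, or 6 and 3 without CD4 replicate 1, 4 and 6 without CD8 replicate 1 and 4 and 7 without CD8 replicate 2. Over all features 15.5% were called toward CD8 and 14.4% toward CD4 cells. Cxcr4, the receptor for the stromal chemokine CXCL12, differed by -1.86 ± 0.22. S1pr1, which directs exit from lymphoid organs, differed by -1.10 ± 0.29, and by -0.82 (adjusted p = 0.093) without CD4 replicate 1. St3gal6 and Gcnt1, glycosyltransferases that modify cell-surface glycans, were higher in CD8 cells by 1.88 ± 0.23 and 1.82 ± 0.29, Gcnt1 from 2 CD8 arrays.

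Transcripts of receptors and signalling genes differed too. Of 25 measured cytokine receptors 5 were higher in CD8 and 8 in CD4 cells, where 15.5% and 14.4% of all features were called. In the 5 arrays alone the counts were 0 and 2. Il2rb, the interleukin-2 receptor beta chain that also serves interleukin-15, was 2.39-fold higher in CD8 cells, opposite to Il2ra. Tgfbr1, a TGF-beta receptor chain, was 1.93-fold higher in CD4 cells. Of 18 STAT and SOCS pathway genes 8 were higher in CD4 cells and 1 in CD8 cells, or 4 and 2 without CD4 replicate 1 and 8 and 2 without CD8 replicate 3. Socs2, a feedback inhibitor, read -2.46, -2.62 and -3.53 against 0.66 and -0.24 (-3.08 ± 0.52), and Pim2, a survival kinase induced by cytokines, was the 1 higher in CD8 cells (1.52 ± 0.30).

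In the BCL2 family, Bcl2l11 (BIM), Bax and Bid, all promoters of cell death, were higher in CD8 cells by 1.98 ± 0.16 (0.79 and not called on a further probe), 0.72 ± 0.16 and 0.98 ± 0.21, and Bbc3 (PUMA) was higher in CD4 cells (-1.45 ± 0.29). These were the 4 called of 14 measured, near the 29.9% of all features called in either direction. In the 5 arrays alone 1 was called in each direction. Among purinergic genes, Cd38, an ectoenzyme that breaks down NAD, was 3.55-fold higher in CD8 cells and P2rx4, an ATP-gated channel, 5.34-fold higher in CD4 cells. Adora2a, an adenosine receptor, was higher in CD8 cells by 0.66 ± 0.17, a call lost under quantile normalization (0.41, adjusted p = 0.0697) and without CD4 replicate 2 (0.50).

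Cell cycle genes had the highest share of calls toward CD8 cells among the 34 lists: 33 of 37 measured were higher in CD8 cells and 0 in CD4 cells, with a median of 1.82, where 15.5% of all features were called in that direction. Birc5 (survivin), which guides chromosome segregation, read 6.85, 6.82 and 6.62 in CD8 cells and 3.39 and 4.37 in CD4 cells (2.88 ± 0.25). Ccnb2, a mitotic cyclin, read 5.80, 5.70 and 5.37 against 3.58 and 3.20, 4.70-fold higher, and Aurka, a spindle kinase, and Ube2c, a partner of the anaphase-promoting complex, were 4.00-fold and 4.79-fold higher. Mki67, the proliferation marker Ki-67, differed less, at 5.68, 5.72 and 5.90 against 5.06 and 4.17 (1.15 ± 0.25), or 0.71 and not called without CD4 replicate 2. The list's count was 34 without CD4 replicate 1 and 29 without CD4 replicate 2, and it was 33 or 34 under quantile normalization, normexp correction and the deposited series matrix.

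Metabolic lists leaned the same way with smaller differences, least for glycolysis. Of 33 respiratory chain genes 14 were higher in CD8 cells and 0 in CD4 cells (median 0.50), and in the 5 arrays alone 0 were called. The list was led by Cycs, cytochrome c, at 5.72, 5.74 and 5.89 against 5.08 and 4.54 (0.98 ± 0.16). The count was 25 without CD4 replicate 1, 6 without CD4 replicate 2, 8 without CD8 replicate 1 or CD8 replicate 2 and 8 under quantile normalization, so its size rested on single arrays and on the scaling. Ndufb8, Sdhb and Cox7c, subunits of respiratory complexes, differed by 0.66, 0.85 and 0.72, and Cox7c was not called under quantile normalization (0.48) nor without CD4 replicate 1 (0.55), and 2 further probes of it were not called (0.042 and 0.43).

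Glycolysis gave 5 of 23 higher in CD8 and 1 in CD4 cells, or 11 and 1 without CD4 replicate 1 but 3 and 2 without CD4 replicate 2, where the median fell from 0.20 to 0.0065. Over all features 15.5% were called toward CD8 cells and 14.4% toward CD4 cells. In the 5 arrays alone 0 of the 23 glycolysis genes were called toward CD8 cells and 1 toward CD4 cells. Pgk1, Ldha and Gapdh, enzymes of glycolysis and lactate production, were higher in CD8 cells by 1.16 ± 0.21, 0.84 ± 0.18 and 0.67 ± 0.15. Of 6 further Gapdh probes 5 were called in that direction and 1 was not (0.11). Ldhb, the lactate dehydrogenase chain of resting cells, was 2.70-fold higher in CD4 cells. Cholesterol synthesis gave 7 of 22 in CD8 cells and 0 in CD4 cells, or 10 and 2 without CD4 replicate 1 and 6 and 1 without CD8 replicate 1, with Mvd, Nsdhl and Idi1, enzymes from mevalonate to cholesterol, at 1.48 ± 0.29, 1.25 ± 0.28 and 0.94 ± 0.18. In the 5 arrays alone 0 of the 22 cholesterol synthesis genes were called. The Nsdhl difference did not show on a further probe (0.026, adjusted p = 0.945).

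For cytosolic ribosomal proteins the direction depended on the scaling. The 35 measured genes had a median of -0.28 with 2 higher in CD8 and 6 in CD4 cells, but a median of 0.07 with 6 and 2 under quantile normalization and 0.06 with 4 and 0 after normexp correction. Rps14 differed by -1.34 ± 0.27 and Rpl23 by -1.11 ± 0.25 in the first scaling, and neither was called after normexp correction (0.15 and -0.08). Further Rpl23 probes read 0.37 and -0.67, neither called. Without CD4 replicate 1 or CD8 replicate 1 the counts were 1 and 3, and without CD8 replicate 3 they were 1 and 13. Rps2 differed by 0.61 ± 0.13, or 0.38 and not called after normexp correction.

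Early-response genes gave 4 of 22 higher in CD8 and 1 in CD4 cells, near the 15.5% of all features toward CD8 cells, or 2 and 1 without CD8 replicate 1 or CD8 replicate 2 and 3 and 2 without CD8 replicate 3. Ier3, an early-response survival gene, read 1.77, 1.37 and 1.09 against -2.13 and -2.29, 12.3-fold higher in CD8 cells, and Myc, a driver of growth, was 2.22-fold higher. Egr2, a factor induced by receptor signals that restrains T cells, was higher in CD4 cells (-1.28 ± 0.26). Type I interferon response genes were higher in CD4 cells for 7 of 24 and in CD8 cells for 0, and without CD4 replicate 2 the counts were 4 and 3. Ifi44 and Oas2, interferon-induced antiviral genes, differed by -3.69 ± 0.44 and -2.18 ± 0.36, Ifit1, another, by -1.74 ± 0.35, and Ifih1, a sensor of viral RNA, by -0.90 ± 0.18, which a further Ifih1 probe did not show (-0.0061, adjusted p = 0.995). Of 27 interferon gamma response genes 3 were higher in each cell type, smaller shares than the 15.5% and 14.4% of all features. Iigp1, an interferon-inducible GTPase, differed by -1.66 ± 0.18, and Socs1, an inhibitor of cytokine signalling, by -1.06 ± 0.26, or by -0.64 (adjusted p = 0.098) without CD4 replicate 1.

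**Figure D4:**
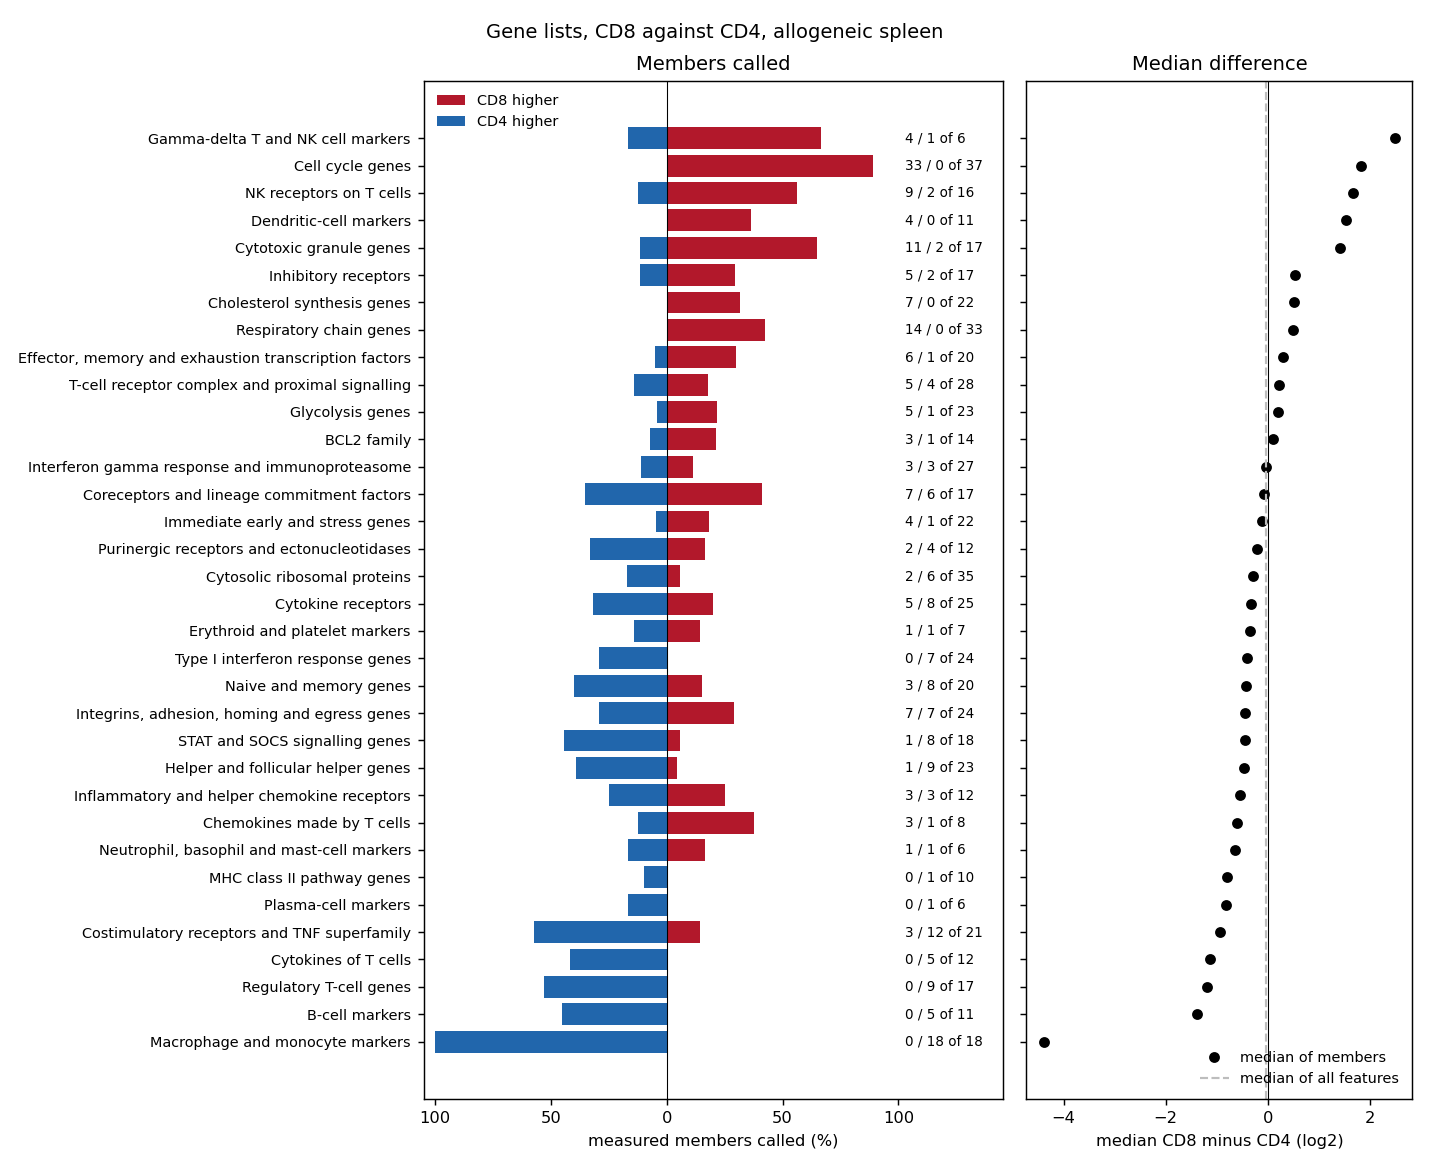
Left, share of each list's measured members called higher in CD8 cells (red, to the right) or in CD4 cells (blue, to the left), with both counts and the number measured beside each bar. Right, each list's median CD8 minus CD4 difference on the log2 scale, with the median of all features dashed at -0.03. Cell cycle genes reach 33 of 37 toward CD8 cells and macrophage markers 18 of 18 toward CD4 cells.

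The same contrast was made in the other arrays, which share no sample with the allogeneic spleen but share its fit and estimate of spread. In the ovary after allogeneic transplantation 4113 features (17.2%) were called, 8.68% higher in CD8 and 8.57% in CD4 cells, and in the spleen after syngeneic transplantation 850 (3.56%), 1.12% and 2.44%. Of the features called in the allogeneic spleen, 6672 (93.6%) had the same sign in the ovary, against 75.3% of all features, and 3998 (56.1%) had the same sign in the syngeneic spleen, against 51.2% of all features. Calls in the same direction were shared with the ovary by 2820 features, 39.6% of the splenic and 68.6% of the ovarian calls, and with the syngeneic spleen by 390, 5.47% of the allogeneic and 45.9% of the syngeneic calls. Calls in opposite directions made up 0.34% of the ovarian and 10.1% of the syngeneic calls. Across features the differences correlated with those of the ovary at Pearson's r = 0.68 and Spearman's rho = 0.66, and with those of the syngeneic spleen at r = 0.26 but rho = 0.049, as a description only, since genes are not independent and the arrays were processed together.

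The difference between the contrasts was itself tested as an interaction. Against the ovary, 12 features (0.0503%) differed, 8 (0.0335%) with a larger value in the ovary and 4 (0.0168%) with a smaller one, or 2753 at an unadjusted p under 0.05. Of the 12, 4 had a gene name. Glis1, a zinc-finger factor, read 2.82, 2.68 and 3.09 in CD8 cells and -1.19 and -0.98 in CD4 cells of the allogeneic spleen, a difference of 3.95 ± 0.17 that was 2.16 in the ovary. Iqgap3, a scaffold protein of dividing cells, was at least 2.18-fold higher in CD8 cells of the spleen and differed by 0.27 in the ovary. Ccnd1, a G1 cyclin, was at least 3.42-fold higher in CD8 cells of the spleen and differed by -2.94 in the ovary, and Zfp202, a zinc-finger gene, differed by -0.58 ± 0.24 and 1.62. With the floor 0 of these 3 interactions of Iqgap3, Ccnd1 and Zfp202 were called (adjusted p = 0.581, 0.236 and 0.492), nor was Ccnd1 in the spleen itself (1.77, adjusted p = 0.0809). The count of 12 ranged from 0 to 1974 under other settings, and it was 1464 without CD4 replicate 2 of the spleen.

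Against the syngeneic spleen, 2981 features (12.5%) differed, 1302 (5.46%) with a larger value in the allogeneic spleen and 1679 (7.04%) with a smaller one. The count was 1412 without syngeneic CD4 replicate 1, 4721 without allogeneic CD8 replicate 3 and 1755 without syngeneic CD8 replicate 2. It was 1906, 1926 and 1928 without allogeneic CD8 replicate 1, allogeneic CD8 replicate 2 and syngeneic CD4 replicate 2. Prf1, Gzma, Gzmb and Gzmk had larger differences after allogeneic transplantation, 3.45, 6.15, 3.31 and 2.28, than after syngeneic transplantation, 1.40, 0.88, 0.88 and 0.18. Klrc1 had 2.95 against 0.10. Klrk1, which was not well above background on the allogeneic CD4 arrays, had a fitted interaction of 3.66 that with the floor was 1.83 and not called (adjusted p = 0.0929). Not every killer gene followed: Nkg7 and Eomes had smaller differences after allogeneic transplantation, 2.02 against 2.81 and 2.38 against 3.69, and Klrd1 (2.08 against 2.71), Crtam (2.46 against 2.43) and Ctsw (2.08 against 2.19) did not pass the interaction test. Several of these interactions rested on single arrays: Gzma was not called without syngeneic CD4 replicate 1, nor Gzmk without that array or allogeneic CD4 replicate 2, nor Eomes without it or allogeneic CD8 replicate 2. Klrc1 and Klrk1 were not called without allogeneic CD4 replicate 1, syngeneic CD4 replicate 2 or syngeneic CD8 replicate 2, and Klrk1 also not without allogeneic CD8 replicate 1 or 2. Those of Gzmb and Nkg7 were not called under quantile normalization and ended with 5 and 8 of the single arrays left out, while that of Prf1 was called with any 1 array left out.

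Some genes had opposite signs after the 2 kinds of transplant. Fasl was higher in CD8 cells of the allogeneic spleen and in CD4 cells of the syngeneic spleen (2.54 and -1.81), as was Pdcd1 (1.51 and -1.94), and the interactions were 4.35 and 3.45 (adjusted p = 0.00048 and 0.00083). Tigit, at 0.57 in the allogeneic spleen and called higher in CD4 cells of the syngeneic spleen, also differed by the interaction test (2.57). Mki67 differed by 1.15 and -0.81 and Cxcr6 by 1.40 and -0.23. In the list of cell cycle genes, 28 of 37 had a called interaction toward a larger difference in the allogeneic spleen, against 5.46% of all features. In the syngeneic spleen 1 of 37 was called, toward CD8 cells, against 1.12% of all features, and the median was -0.17. In the ovary 21 of 37 were called toward CD8 cells, against 8.68% of all features, with a median of 0.81.

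Il7r, Tcf7 and Ccr7 were lower in CD8 than in CD4 cells of the allogeneic spleen (-2.61, -1.74 and -2.01) but differed by 0.18, 0.14 and 0.26 in the syngeneic spleen, where 0 of the 3 were called, and their interactions were called. Il2ra went the other way in size: CD4 cells exceeded CD8 cells by more after syngeneic transplantation (-6.35) than after allogeneic transplantation (-2.57). Foxp3 (-3.41 and -4.58), Il2 (-3.33 and -2.09) and Icos (-1.38 and -1.34) had no called interaction. The coreceptors also had none, with Cd8b1 at 7.52 and 6.51 and Cd4 at -3.07 and -2.20, while Cd8a, not well above background on any CD4 array, was at least 426-fold and 590-fold higher in CD8 cells.

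Other genes had the largest fitted interactions among those with a gene name, and most of these sizes rest on groups that were not well above background. Tmem273, a transmembrane protein, was higher in CD8 cells of the allogeneic spleen (2.16) and at least 35.7-fold higher in CD4 cells of the syngeneic spleen, with an interaction of 9.27, or 7.32 with the floor. Zbtb16 had the same pattern at 2.77 and -5.84, with an interaction of 8.61, or 7.66 with the floor. Epdr1 differed by 5.66 in the allogeneic spleen and was at least 2.46-fold higher in CD4 cells of the syngeneic spleen, and its interaction of 8.89 was 6.23 with the floor.

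Klrb1a, an NK receptor of the NKR-P1 family, was at least 2.41-fold higher in CD8 cells of the allogeneic and at least 12.9-fold higher in CD4 cells of the syngeneic spleen, and its interaction of 7.56 was 4.96 with the floor. Its allogeneic difference was not called without CD4 replicate 2, CD8 replicate 1 or CD8 replicate 2. Tmprss6, at least 62.8-fold higher in CD8 cells of the allogeneic spleen, was well above background on 1 of the 5 syngeneic spleen arrays, and its interaction of 8.01 was 6.09 with the floor. These 5 interactions were called with the floor too, although their order differed.

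In the other direction, Cxcl9, a chemokine induced by interferon gamma, had -2.15 and 4.31, and the first was -1.38 and not called without CD4 replicate 1, nor was a further probe called (-1.11, adjusted p = 0.0799). Slc6a19, an amino acid transporter, was at least 20.6-fold higher in CD8 cells of the syngeneic spleen and not well above background on the allogeneic CD4 arrays, with an interaction of -6.36, or -5.20 with the floor. No syngeneic spleen array had Gcg, Sln or Fn1 well above background, so only the allogeneic difference was measured, and for Sln and Fn1 only as the bounds given above. Their interactions of -5.86, -5.52 and -6.58 were -5.94, -4.23 and -5.80 with the floor, all called. The Fn1 interaction was not called under quantile normalization (-6.10, adjusted p = 0.0516) and ended with 7 of the single arrays left out. Gcg and Fn1 were also higher in CD4 cells of the ovary, at least 118.9-fold and 79.1-fold.

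The macrophage markers moved with the CD4 label in all 3 settings. Their summed signal was 10.8 to 20.4 in CD8 and 41.2 to 71.9 in CD4 cells of the syngeneic spleen, and 11.8 to 14.8 in CD8 and 71.5 to 172.5 in CD4 cells of the ovary. For these markers 10 of 18 were called in the syngeneic spleen and 16 of 18 in the ovary, all toward CD4 cells. Over all features 2.44% and 8.57% were called in that direction. The 18 are those that passed the filter on the allogeneic spleen arrays. A called interaction between the transplants was found for 2 of 18, toward a smaller value after allogeneic transplantation, against 7.04% of all features. The part of the macrophage markers in the other differences was not tested.

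**Figure D5:**
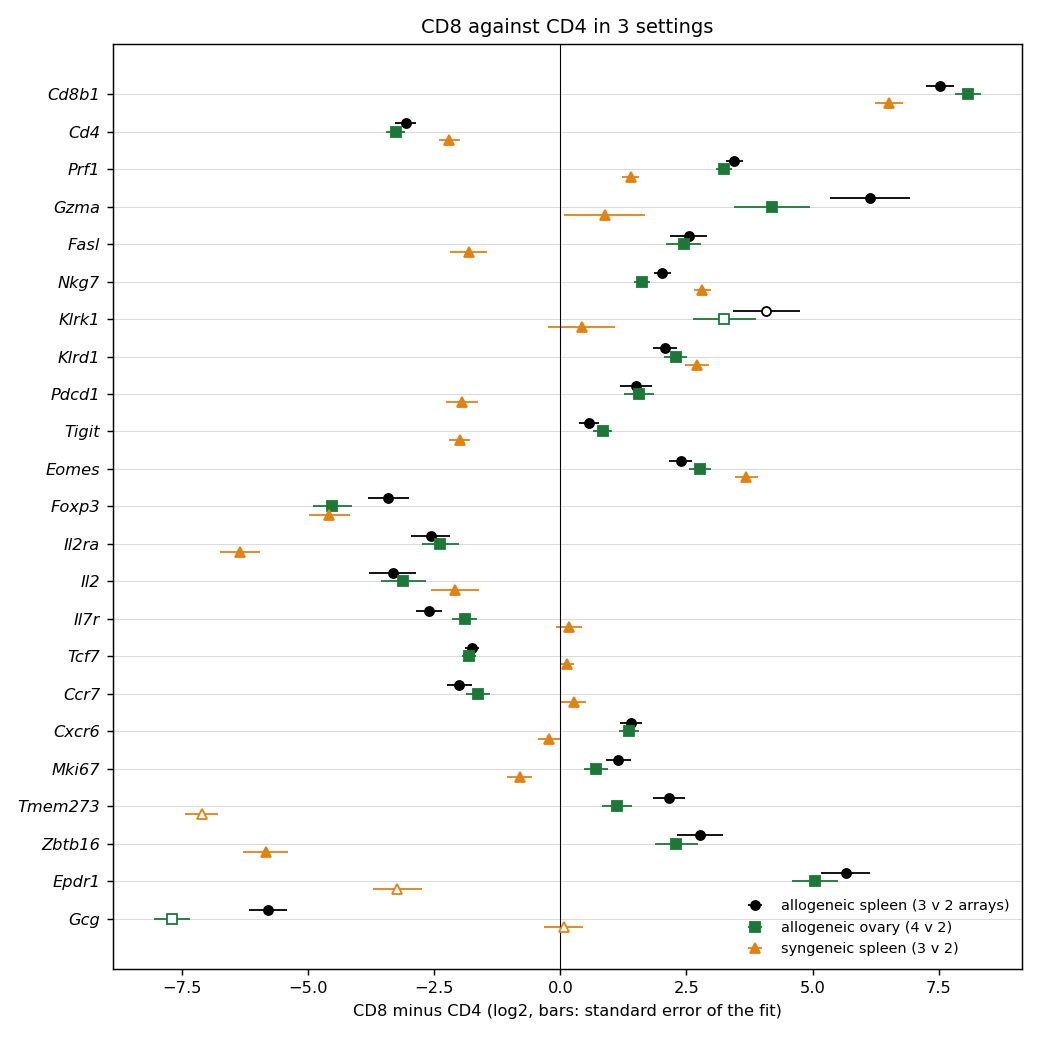
CD8 minus CD4 difference of 23 genes on the log2 scale in the allogeneic spleen (circles), allogeneic ovary (squares) and syngeneic spleen (triangles), with the standard error of the fit as bars. Open symbols mark fitted values for which no array of the CD8 or of the CD4 group was well above background. The syngeneic values of Fasl, Pdcd1, Tigit, Cxcr6, Mki67, Tmem273, Zbtb16 and Epdr1 lie on the opposite side of 0 from the allogeneic ones, and those of Il7r, Tcf7 and Ccr7 lie near 0.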

How the data were processed

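Total RNA of sorted donor T cells was labelled with Cy3 and hybridised to Agilent arrays, per the labels' protocols. In each deposited scanner table the spot intensity is the processed signal, from which Feature Extraction (Agilent, version 11.5.1.1 in the file headers) had subtracted background. The deposited series matrix holds log2 values, which were found from the values to be the scanner's log2 signals minus the 75th percentile and the probe's median (r at least 0.9998, column medians -0.34 to 0.49). No source used here names the software behind it.

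Outlier spots were left out and 0 spots were saturated. Of 55681 probes, 27656 were named through their accessions in a RefSeq gene table (GRCm38.p6), and 28025 stayed unnamed. The filter kept 27728 probes. Each gene was represented by its brightest probe on average, which gave 23849 features, 12659 with a symbol. No positions on the array's design are printed, since its coordinates use another build. Of 38 genes of the text with further kept probes, the 50 further probes of called genes had the same sign 48 times, 38 were called in the same direction, 12 (of 10 genes) were not called, and 0 were called in the opposite direction.

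One limma model (version 3.58.1 in R 4.3.3), with 1 mean per group and 10 residual degrees of freedom, was fitted to all 16 arrays. P-values were adjusted over all features by the Benjamini-Hochberg method, with 0.05 as the threshold. The number of arrays, 3 and 2, limits the precision. The fit was tested on simulated data first. The members and the 34 gene lists were chosen with earlier results of these data known. Genes were named by rule: the 15 largest differences each way, in every list the 4 measured genes of lowest p at most, 49 fixed genes, of which Cd40lg was not measured here, and the 5 largest of each direction in each interaction; the text names part of those met, and some that met the rule are not reported here. T-cell receptor and immunoglobulin segments were not named.

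Alternatives were normexp correction (offset 50, on median signals) with quantile normalization, quantile normalization alone, the series matrix, other filters and floors, the mean of a gene's probes, slide and replicate blocks, each slide alone, the 5 arrays alone, array weights, a trended robust variance, a 2-fold threshold and leaving out each array. A common floor at the dimmest array's limit (-2.50) and the list counts under the alternatives were chosen after seeing the data.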

Additional observations from a re-analysis of the deposited data

Results flagged for a closer look

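The CD8 minus CD4 difference in the allogeneic spleen was compared with that in the other settings by an interaction test, and the results past its threshold are given as values (log2). Between the allogeneic and the syngeneic spleen 2981 features differed. With a larger value after allogeneic transplantation, they included Tmem273 (9.27), Epdr1 (8.89), Zbtb16 (8.61), Tmprss6 (8.01) and Klrb1a (7.56), the killer genes Gzma (5.27), Gzmb (2.43), Gzmk (2.09), Prf1 (2.05), Fasl (4.35), Klrk1 (3.66) and Klrc1 (2.85), the receptors Pdcd1 (3.45), Tigit (2.57), Il2ra (3.78) and Cxcr6 (1.63), and the division-linked genes Mki67 (1.96), Ccnd1 (4.03) and Iqgap3 (3.28), with Glis1 (3.68). A smaller value was found for Fn1 (-6.58), Cxcl9 (-6.46), Slc6a19 (-6.36), Gcg (-5.86), Sln (-5.52), Il7r (-2.78), Ccr7 (-2.27), Tcf7 (-1.88), Eomes (-1.31) and Nkg7 (-0.79). Where a group was not well above background on any of its arrays, the fitted size and its rank rest on unmeasured values. With every array raised to its lowest signal well above background the values were 7.32 for Tmem273, 6.23 for Epdr1, 6.09 for Tmprss6, 4.96 for Klrb1a, -5.80 for Fn1, -5.20 for Slc6a19, -5.94 for Gcg and -4.23 for Sln. Klrk1 (1.83), Ccnd1 (2.42) and Iqgap3 (0.99) were then not past the threshold. Ccnd1, Fn1 and Nkg7 were not past the threshold after normexp correction (1.98, -2.93 and -0.57), nor Gzmb under quantile normalization (2.18).

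Between the ovary and the allogeneic spleen 12 features differed, 4 of them named: Zfp202 (2.20), Ccnd1 (-6.32), Iqgap3 (-2.52) and Glis1 (-1.79), as ovary minus spleen. After normexp correction Zfp202 (0.37), Ccnd1 (-2.95) and Iqgap3 (-0.74) were not past the threshold.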

How the results depend on the processing

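Arrays per group limit precision, and a dim array limits what can be seen at low signal: the lowest signal well above background was -2.50 on CD4 replicate 2 and -5.28 on CD8 replicate 1. With no filter on dim probes 2677 features were higher in CD8 and 6846 in CD4 cells, against 3700 and 3428. The count for CD8 against CD4 in the allogeneic spleen (7128) was 82 on slide 2 alone (1 array a group), 1216 in the 5 arrays alone, 3177 with array weights (1972 and 1205) and 471 at a 2-fold threshold, and within 1.5 times of 7128 under every other alternative run, from 4802 to 8368 with 1 array left out. Replicate numbers 1 and 2 are shared by the groups but pair only 2 samples and name no shared animal, so the replicate block is given here alone: 8840 features were called (4199 and 4641), with 4 and 6 of 22 early-response and 1 and 15 of 35 ribosomal genes.

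The interaction with the ovary (12) gave 50 after normexp correction, 30 under quantile normalization, 4 with the filter on all 16 arrays, 6 with the filter on any group, 1974 on slide 1, 3 with the replicate block, 248 with the common floor and in limma's test 0 with no filter, the array floor, slide 2, the groups compared alone, array weights or a 2-fold threshold (2744, 2537, 1301, 2242, 2274 and 175 at an unadjusted p under 0.05). Without 1 array it ran from 0 to 1464. The interaction with the syngeneic spleen (2981) gave 1086 with no filter, 5010 on slide 1, 0 on slide 2 (3293 unadjusted), 1111 in the groups compared alone, 1687 with array weights and 168 at a 2-fold threshold. Without 1 array it ran from 1412 to 4721.

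Of the values of 165 genes in the allogeneic spleen under the alternatives, 3118 kept direction and call, 427 lost the call, 19 gained one and 10 changed sign. After normexp correction the sign changed for Cd3e (-0.013), Cd3g (0.095), Rps14 (0.15) and Zfp202 (0.10). Cd3g was 0.22 on slide 2 and ran from -0.22 to 0.0079 without 1 array, and Cd3e from -0.0049 to 0.34. Slc6a19 was -0.84 with the array floor and -0.26 on slide 1, and ran from -0.14 to 0.82 without 1 array. The cause of these changes was not tested.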
